A study of Mus musculus with 4 samples.

Results

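*Nkx2-1*, *Lhx6*, *Lhx8*, *Sox6*, *Satb1*, *Maf*, *Mef2c*, *Zeb2* and *Npas1* are 9 of the 56884 genes counted in a single-nucleus RNA-seq study of the embryonic mouse cortex. They were chosen by symbol as the transcription factors through which interneurons of the medial ganglionic eminence (MGE) are specified and matured. All 9 symbols occurred in the gene table. The tissue was the medial neocortex at E16.5. The control embryos were *Sst-Cre/tdTomato*, in which Cre and the tdTomato reporter mark cells of the somatostatin (*Sst*) lineage. The Dnmt1 KO embryos were *Sst-Cre/tdTomato/Dnmt1 loxP2*, in which the same Cre deletes *Dnmt1*, the maintenance DNA methyltransferase, once a cell turns on *Sst*. Cre and tdTomato were thus shared by both groups, and neither has an entry in the gene table, so recombined nuclei were not identified. Each genotype had 2 libraries, and the legend of the study's supplement gives 2 brains per genotype.

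Cortical interneurons are not born in the cortex. Those of the MGE arise in the ventral telencephalon under NKX2-1, which turns on *Lhx6* and is then switched off in the cells that migrate to the cortex but kept in many that settle in the striatum. LHX6 and its targets SOX6 and SATB1 carry the somatostatin and parvalbumin fates forward, MAF and MEF2C bias the choice between them, and ZEB2 is required for *Nkx2-1* to be shut down and for cells to head to the cortex. LHX8 acts with LHX6 in the MGE and specifies cholinergic neurons of the basal forebrain. NPAS1 restrains interneuron generation in the ganglionic eminences and is found in both MGE and caudal (CGE) derivatives.

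The 4 libraries held 4905 to 12064 nuclei with 1500 to 60000 transcripts each, and no barcode was shared between any pair of libraries. Where 4 values are given they follow the library order Dnmt1 KO replicate 1, Dnmt1 KO replicate 2, Control replicate 1, Control replicate 2. The median nucleus had 12274 to 12401 transcripts in 3 libraries and 21140 in Control replicate 2, which the labels put alone in batch 2, so a comparison within that batch is not possible. GABAergic nuclei were taken as those with at least 2 transcripts of *Gad1* and *Gad2* together (Gad+, 4105 of 29656 nuclei). Within Gad+, nuclei with *Sst* were called Sst+ (216), those without *Sst* but with *Ebf1*, a striatal and vascular gene, Ebf1+ (444), those with neither but with *Adarb2*, a CGE gene, Adarb2+ (1372), and the rest triple-negative (2073). The gates were not exclusive by gene: 277 of the Ebf1+ nuclei, 191 of them in Control replicate 1, also held *Adarb2*, and 52 of the Sst+ nuclei held *Adarb2* or *Ebf1*. Excitatory nuclei (16554) had no *Gad1* or *Gad2* transcript and at least 2 of *Neurod2*, *Neurod6*, *Slc17a6* and *Slc17a7*. Progenitor nuclei (3335) had none of these genes and at least 3 transcripts of *Slc1a3*, *Pax6* and *Sox2*. In Gad+ nuclei the 20-gene GABAergic and MGE list summed to 21752 to 28903 CPM (a gene's transcripts over all transcripts of the same gate and library, scaled to one common total), against 4753 to 5462 CPM in excitatory nuclei. The 7 excitatory markers ran from 1426 to 2023 CPM in Gad+ and from 6370 to 7808 CPM in excitatory nuclei, and 765 Gad+ nuclei also held at least 2 excitatory transcripts. Endothelial markers (5 genes) reached 500.3 and 865 CPM in the Ebf1+ nuclei of Dnmt1 KO replicate 2 and Control replicate 2, against 7.10 and 30.9 CPM in the other libraries, and in the Sst+ nuclei of the same 2 libraries they were at 87.7 and 188 CPM, against 4.23 and 3.64 CPM. Their part in the Ebf1+ and Sst+ values was not tested.

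The composition of the Gad+ nuclei differed between libraries. Ebf1+ nuclei were 17.9% of Gad+ nuclei in Control replicate 1 and 3.01% in Control replicate 2, against 4.20% and 8.50% in the Dnmt1 KO libraries. The 15 striatal and LGE (lateral ganglionic eminence) genes summed to 6865 CPM in Gad+ nuclei of Control replicate 1 and to 1689 to 2517 CPM in the other 3 libraries. *Dnmt1* itself was measured at 76.1, 46.7, 81.2 and 66.5 CPM in Sst+ nuclei, in library order. The groups overlapped, and since whole-gene counts do not separate the exons between the loxP sites from the others, these values do not check the labels.

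The promoters of the 3 LIM and NK homeobox members are shown because CpG dinucleotides, set in capitals, are the substrate of the enzyme that was deleted; methylation itself was not measured in these libraries. Each line gives RefSeq sequence of GRCm38.p6 on the minus strand, 5′ to 3′, from 250 bases before an annotated start. It ends at that start or, if earlier, before the first base found in the exons of a GENCODE transcript of the gene. The *Lhx6* interval lies downstream of another start of the gene, and so within its span. The intervals are chr12:56536938-56537158 for *Nkx2-1*, chr2:36104534-36104783 for *Lhx6*, where the table has 3 starts and the one with the most CpG was taken, and chr3:154330660-154330810 for *Lhx8*.
Nkx2-1: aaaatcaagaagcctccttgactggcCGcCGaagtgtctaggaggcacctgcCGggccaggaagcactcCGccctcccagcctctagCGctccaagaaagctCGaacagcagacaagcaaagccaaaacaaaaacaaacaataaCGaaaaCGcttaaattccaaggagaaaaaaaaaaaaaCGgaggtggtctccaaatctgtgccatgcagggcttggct
Lhx6: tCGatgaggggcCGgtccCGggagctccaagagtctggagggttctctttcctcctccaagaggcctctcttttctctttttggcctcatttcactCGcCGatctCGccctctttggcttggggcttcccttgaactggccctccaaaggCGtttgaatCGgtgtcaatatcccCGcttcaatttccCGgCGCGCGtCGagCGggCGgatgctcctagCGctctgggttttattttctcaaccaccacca
Lhx8: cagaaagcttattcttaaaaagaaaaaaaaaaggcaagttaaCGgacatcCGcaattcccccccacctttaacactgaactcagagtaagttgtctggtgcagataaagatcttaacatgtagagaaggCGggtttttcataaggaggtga

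Over the 250 bases before the start, the *Nkx2-1* window held 9 CpG, the *Lhx6* windows 14, 17 and 7, and the *Lhx8* window 4, against a median of 6 over 32851 windows. Over the other members the windows ranged from 1 (*Sox6*, *Mef2c*) to 41 (*Satb1*). The letters TCAAG, which contain the CAAG core that NKX2-1 is known to bind, occurred on either strand in all 3 *Lhx6* windows and in the *Nkx2-1* window but not in that of *Lhx8*, in 12 of the 24 windows of the members, and in 35.9% of all windows. RefSeq windows were found for 8 of the 9 members, all but *Maf*.

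*Lhx6* (chr2:35971964-35995601, GRCm39, minus strand) was close to absent outside GABAergic nuclei. In Gad+ nuclei it was at 260, 164, 143 and 306 CPM, in library order. In excitatory nuclei it lay between 0.413 and 0.960 CPM. The difference was 7.94 ± 0.32 on the log2 scale (SE; edgeR quasi-likelihood test on library sums with library as a block, adjusted p = 4.34e-05, higher in 4 of 4 libraries). With every nucleus thinned to 1500 transcripts, 17.5% to 35.7% of Gad+ nuclei and 0.0313% to 0.206% of excitatory nuclei had an *Lhx6* transcript. Without thinning the shares were 41.9% to 75.4% and 0.594% to 2.17%, the latter in nuclei that should lack the gene. The median depth was 10052 to 17564 transcripts in Gad+ and 13770 to 23320.5 in excitatory nuclei.

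*Maf* and *Npas1* were also higher in Gad+ than in excitatory nuclei. *Maf* (chr8:116409632-116434579) ran from 153 to 303 CPM in Gad+ and from 0.848 to 3.54 CPM in excitatory nuclei, a log2 difference of 6.83 ± 0.48 (adjusted p = 0.00024). *Npas1* (chr7:16188679-16211653) ran from 32.6 to 97.6 CPM in Gad+ and from 0.0620 to 0.257 CPM in excitatory nuclei, a difference of 8.23 ± 0.37 (adjusted p = 6.39e-05). Its excitatory level was too low for the filter on low counts, so it passed through its Gad+ values only. The fitted size depends on the prior count, and the size and adjusted p are no support beyond the levels themselves. In progenitor nuclei *Npas1* reached at most 1.15 CPM and *Maf* lay between 4.91 and 7.01 CPM in 3 libraries, with 26.8 CPM in Dnmt1 KO replicate 2, where 13.4% of progenitor nuclei held it.

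*Sox6* and *Satb1* marked GABAergic nuclei by degree. *Sox6*, a SoxD factor (chr7:115070106-115638860), was at 2084, 1587, 1489 and 1647 CPM in Gad+ nuclei, and at 259 to 394 CPM in excitatory nuclei (log2 difference 2.38 ± 0.11, adjusted p = 6.85e-05). Its highest levels were in progenitor nuclei, at 3091 to 3650 CPM, above every Gad+ library. *Satb1*, a chromatin organizer (chr17:52043114-52140622), was at 452, 310, 234 and 403 CPM in Gad+ and at 59.8 to 100 CPM in excitatory nuclei (2.08 ± 0.15, adjusted p = 0.000281). Its progenitor level, 82.1 to 109 CPM, was near that of excitatory nuclei.

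*Zeb2* and *Mef2c* were shared by both neuron classes. *Zeb2* (chr2:44873644-45007464) ran from 2016 to 2696 CPM in Gad+ and from 1440 to 1759 CPM in excitatory nuclei, a small but called difference (0.53 ± 0.09, adjusted p = 0.00899). It lost the call without Dnmt1 KO replicate 2 (0.45, adjusted p = 0.0531) and without Control replicate 2 (0.49, adjusted p = 0.0539). *Mef2c* (chr13:83652064-83815555, the only member on the plus strand) ran from 735 to 1212 CPM in Gad+ and from 510 to 1048 CPM in excitatory nuclei. The ranges overlapped and the difference of 0.34 ± 0.20 did not pass (adjusted p = 0.274). Both genes were lowest in progenitors, with *Mef2c* at 52.1 to 141 CPM and *Zeb2* at 508 to 671 CPM.

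*Nkx2-1* (chr12:56578742-56583722) and *Lhx8* (chr3:154011931-154036296) were nearly silent and did not pass the filter on low counts in this comparison. Over all 4 libraries, 64 nuclei held an *Nkx2-1* transcript and 15 an *Lhx8* transcript, of which 52 and 12 were Gad+. *Nkx2-1* was at 10.8, 0.435, 2.35 and 0.189 CPM in Gad+ nuclei, so that Dnmt1 KO replicate 1 stood highest and replicate 1 of the controls next. *Lhx8* was at 3.45 CPM in Control replicate 1, rested on 1 transcript in Dnmt1 KO replicate 2, and was at 0 in the other 2 libraries.

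Of the 7 members tested between Gad+ and excitatory nuclei, 6 were higher in Gad+ and none lower. The 6, and the median below, include *Npas1*, which passed the filter on low counts through its Gad+ values only and is no support here. Among all 17511 genes, 26.0% passed the same test, 12.6% higher and 13.4% lower in Gad+ nuclei. The median log2 difference was 2.38 over the 7 members and 0.00 over all genes tested. Of the 20 other genes of the GABAergic and MGE list, 17 were higher, among them *Dlx6os1*, a transcript of the *Dlx5*/*Dlx6* locus (8.65 ± 0.20), *Erbb4*, the neuregulin receptor of interneurons (8.52 ± 0.27), *Nxph1*, a neurexophilin (8.28 ± 0.31), and *Sp9*, a zinc-finger factor of ganglionic eminence derivatives (6.87 ± 0.25). Only *Lmo1* of that list was lower (−1.91 ± 0.13). Of the 10 CGE genes, 9 were tested, of which 4 were higher, led by *Htr3a*, a serotonin receptor (6.57 ± 0.35), and 2 lower. Of the 15 striatal and LGE genes, 13 were tested, of which 5 were higher, led by *Isl1* (6.16 ± 0.35) and *Six3* (5.53 ± 0.28), and 3 lower.

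**Figure D1:**
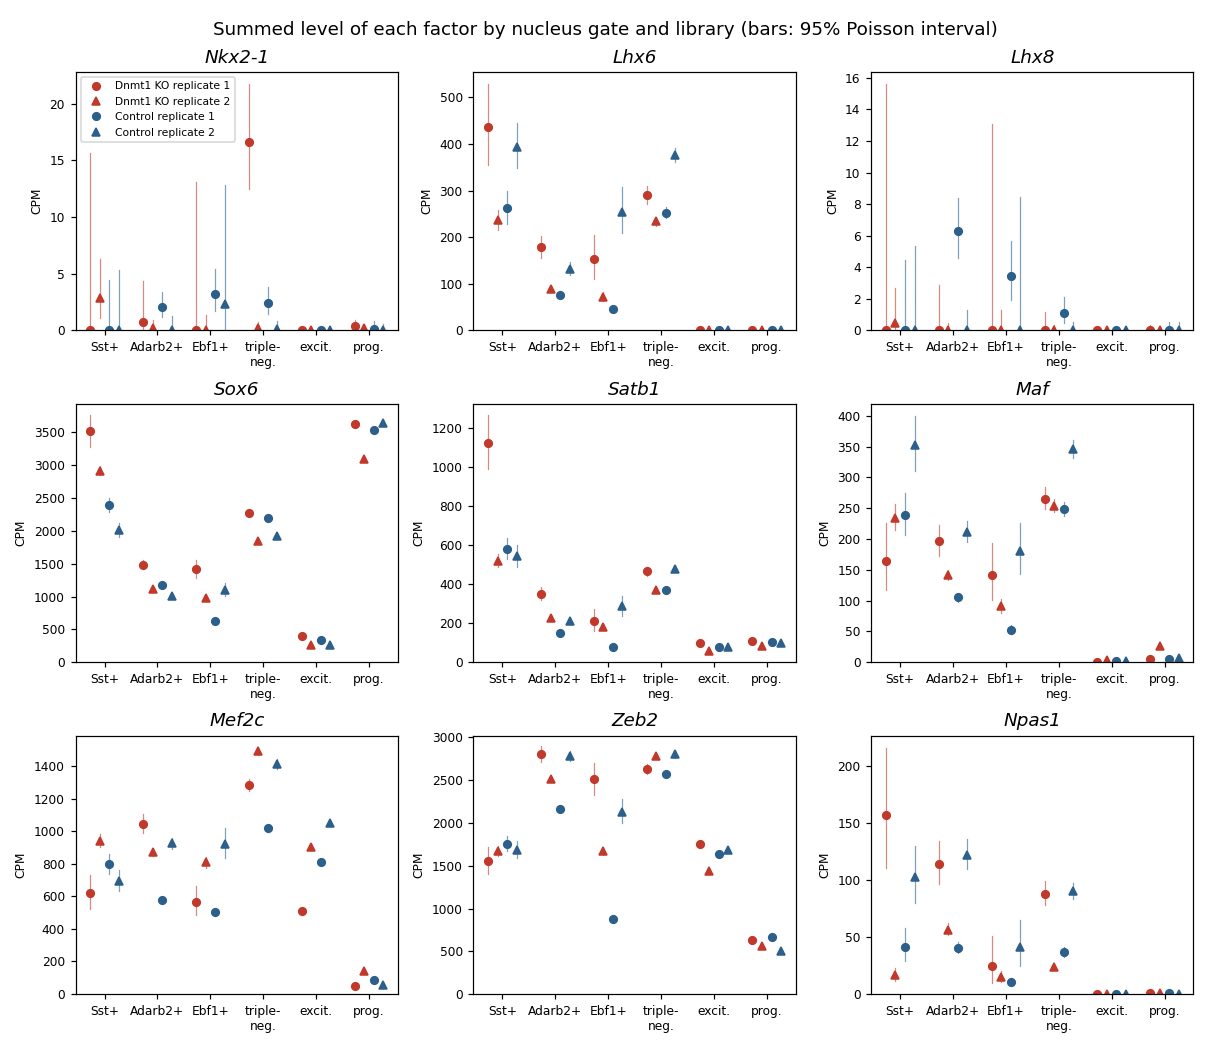
Level of each factor in CPM (y axis, linear and scaled per gene) in the 6 gates (x axis), with circles for replicate 1, triangles for replicate 2, red for Dnmt1 KO and blue for Control, and bars for the 95% Poisson interval of the count. *Lhx6*, *Maf* and *Npas1* sit near 0 in excitatory and progenitor nuclei, apart from a higher *Maf* value in progenitor nuclei of Dnmt1 KO replicate 2. *Sox6* is high in progenitors at 3091 to 3650 CPM, and *Nkx2-1* stands out in the triple-negative nuclei of Dnmt1 KO replicate 1 at 16.6 CPM.

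Sst+ nuclei were then compared with the other GABAergic gates. The Sst+ gate held 16, 133, 40 and 27 nuclei in library order, and nuclei that express *Sst* below detection fall into the other gates. Intervals on a single library's level cover counting error only.

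*Lhx6* was at 436, 237, 262 and 394 CPM in Sst+ nuclei, and at 178, 88.4, 76.8 and 133 CPM in Adarb2+ nuclei. No library of one gate overlapped the other, and the difference was 1.55 ± 0.24 (log2, SE; edgeR on 16 sums with library as a block, adjusted p = 0.00164). *Sox6* was at 3514, 2918, 2399 and 2016 CPM in Sst+ against 1481, 1121, 1173 and 1009 CPM in Adarb2+ (1.22 ± 0.16, adjusted p = 0.000548). *Satb1* was at 1121, 520, 579 and 543 CPM in Sst+ against 350, 225, 152 and 213 CPM in Adarb2+ (1.61 ± 0.24, adjusted p = 0.00128). All 3 genes were thus higher in Sst+ nuclei in each of the 4 libraries.

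*Maf* was at 165, 235, 239 and 353 CPM in Sst+ and 197, 141, 105 and 211 CPM in Adarb2+ nuclei, higher in 3 of 4 libraries (0.72 ± 0.20, adjusted p = 0.0536). The library in which it was not higher, Dnmt1 KO replicate 1, had the 16 Sst+ nuclei, and without it the difference was 0.90 (adjusted p = 0.0167). *Zeb2* was lower in Sst+ by value, at 1556 to 1759 CPM in Sst+ and 2158 to 2808 CPM in Adarb2+ nuclei, with no overlap (as for 9.81% of all genes tested), but did not pass (−0.55 ± 0.19, adjusted p = 0.124). Without Control replicate 1 it did (−0.70, adjusted p = 0.0166). *Npas1* (−0.38 ± 0.27) and *Mef2c* (−0.08 ± 0.17) did not pass either. Thus 3 of 7 tested members were called, all higher in Sst+, where 4.92% of 11910 genes were called, 2.77% higher and 2.15% lower.

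Against Ebf1+ nuclei, 5 of the 7 members were higher in Sst+ nuclei. *Satb1*, at 209, 178, 76.0 and 287 CPM in Ebf1+, differed by 2.03 ± 0.26 (adjusted p = 0.000266). *Lhx6*, at 153, 72.0, 45.8 and 255 CPM in Ebf1+, differed by 1.68 ± 0.26 (adjusted p = 0.0013). *Sox6*, at 1412, 975, 629 and 1103 CPM, differed by 1.51 ± 0.17 (adjusted p = 9.48e-05). For these genes Control replicate 1, which held 265 of the 444 Ebf1+ nuclei, gave the lowest Ebf1+ value.

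*Maf*, at 142, 91.0, 52.4 and 181 CPM in Ebf1+ nuclei, differed by 1.40 ± 0.22 (adjusted p = 0.00133), and without Dnmt1 KO replicate 2 by 1.31 (adjusted p = 0.051). *Npas1* was at 24.8, 14.7, 10.3 and 41.3 CPM in Ebf1+ and at 156, 16.4, 41.2 and 103 CPM in Sst+ nuclei (1.54 ± 0.33, adjusted p = 0.0105). Its call was lost without Dnmt1 KO replicate 1 (1.27, adjusted p = 0.0593), without Control replicate 1 (1.32, adjusted p = 0.0687) and without Control replicate 2 (1.58, adjusted p = 0.0555). *Mef2c* (0.26 ± 0.17) and *Zeb2* (0.06 ± 0.19) did not pass. Among all 11910 genes 7.09% were called, 3.54% higher and 3.54% lower.

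Between Adarb2+ and Ebf1+ nuclei *Npas1* alone was called. It was at 114, 56.5, 40.4 and 122 CPM in Adarb2+ nuclei, above the Ebf1+ value of the same library in 4 of 4 libraries (1.92 ± 0.29, adjusted p = 0.00248). *Lhx6* (0.12 ± 0.25), *Sox6* (0.29 ± 0.16) and *Satb1* (0.42 ± 0.25), each called higher in Sst+ nuclei against both of these gates, did not pass. *Zeb2* (0.61 ± 0.19, adjusted p = 0.116) passed when Ebf1+ and Adarb2+ needed at least 2 transcripts of their gene (1.22, adjusted p = 0.00388) and when Dnmt1 KO replicate 1 was left out (0.79, adjusted p = 0.0462). The count of 1 of 7 members stood beside 3.13% of 11910 genes, 1.02% higher and 2.12% lower in Adarb2+ nuclei.

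The other gene lists differed between the gates as well. In Sst+ against Adarb2+ nuclei 4 of 20 genes of the GABAergic and MGE list were higher, led by *Elfn1* (2.05 ± 0.17), which shapes synapses onto SST interneurons, and 4 were lower, led by *Lmo1* (−1.34 ± 0.30). Of 7 tested CGE genes 5 were lower in Sst+, led by *Prox1* (−3.35 ± 0.53) and *Sp8* (−2.69 ± 0.71), both CGE transcription factors. Of 9 tested striatal and LGE genes 4 were lower in Sst+ too. In Adarb2+ nuclei of Control replicate 1 the striatal and LGE list summed to 6401 CPM and the CGE list to 3610 CPM. In the other libraries the CGE list was the higher in that gate. The part of striatal nuclei in the Adarb2+ values was not tested. In Sst+ against Ebf1+ nuclei 6 of 9 tested striatal and LGE genes were lower, led by *Isl1* (−5.14 ± 0.85) and *Foxp2* (−3.53 ± 0.24). The radial glia markers ran from 321 to 432 CPM in Sst+ nuclei, against 619 to 895 CPM in Adarb2+ and 652 to 717 CPM in Ebf1+ nuclei. The excitatory markers ran from 224 to 1641 CPM in Sst+ nuclei, against 1631 to 2406 CPM and 1806 to 2548 CPM. Their part in the member differences was not tested. The gates were defined by *Sst*, *Adarb2* and *Ebf1* alone, which were left out of the tests. The median difference was 0.72 over the members and −0.26, −1.32 and −1.54 over the GABAergic and MGE, CGE and striatal lists in Sst+ against Adarb2+ nuclei, and 0.00 over all genes tested.

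**Figure D2:**
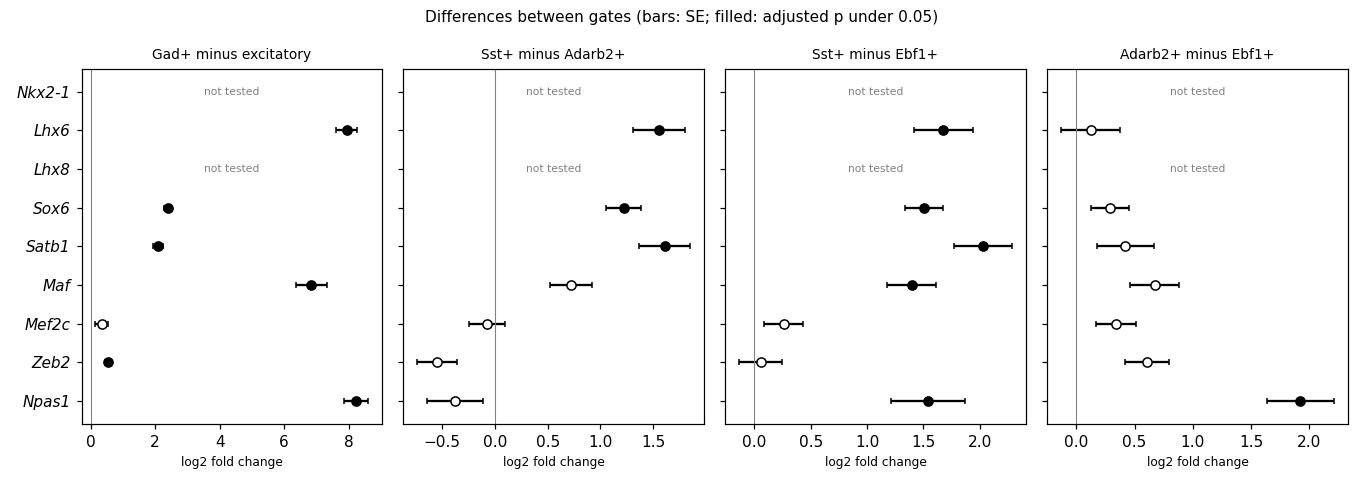
Log2 fold change of each factor (x axis, each panel on its own scale) in the 4 comparisons between gates, with bars for the SE and filled points where the edgeR adjusted p was under 0.05. *Lhx6*, *Sox6* and *Satb1* lie between 1.22 and 2.03 in both Sst+ comparisons, while in Adarb2+ against Ebf1+ nuclei only *Npas1*, at 1.92, is filled.

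The triple-negative nuclei, the largest GABAergic gate, were not tested against the others. Their *Lhx6* level (290, 234, 252 and 377 CPM in the library order above) and their *Sox6* level (1844 to 2279 CPM) overlapped the range of Sst+ nuclei, and both were below the Sst+ level of the same library in 4 of 4 libraries. Their *Satb1* level (368 to 480 CPM) was below every Sst+ library. *Mef2c*, at 1021 to 1490 CPM, was above the Sst+ value of its library in 4 of 4 libraries. The share of all genes with such orderings between these gates was not counted, so they are descriptive. In order of level, *Sox6* fell from progenitor nuclei to Sst+, triple-negative, Adarb2+, Ebf1+ and excitatory nuclei by the mean over libraries, with overlapping ranges between progenitor and Sst+, Sst+ and triple-negative, and Adarb2+ and Ebf1+ nuclei.

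*Npas1* differed between libraries of the same genotype. In Gad+ nuclei it was at 94.3, 33.3, 32.6 and 97.6 CPM in library order, high in Dnmt1 KO replicate 1 and Control replicate 2 and low in the other pair. The same pair of libraries was higher in each GABAergic gate, and in triple-negative nuclei the values were 88.0 and 90.0 against 23.8 and 37.0 CPM. *Lhx6* was higher in this pair too in each GABAergic gate, and *Sox6*, *Satb1*, *Maf*, *Zeb2* and, by a small margin, *Mef2c* (1150 and 1212 against 1145 and 735 CPM) were so in Gad+ nuclei as a whole. The pair was chosen from the *Npas1* values, and the gates are parts of the Gad+ nuclei. The share of all genes that separate the libraries in this way was not counted, so these orderings are descriptive. After thinning to 1500 transcripts, the share of Gad+ nuclei with *Npas1* was 12.3% and 10.6% against 5.46% and 3.64%. Gad+ nuclei were 6.76% and 10.2% of all nuclei in the former pair and 14.4% and 21.1% in the latter, and whether this composition bears on these values was not tested.

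Dnmt1 KO and Control libraries were compared within each gate. In nuclei, a change in the number of cells of a type inside a gate and a change in RNA per cell cannot be told apart. No member passed in any gate, and no gene did: the share called was 0% in Gad+ (of 15487 genes), Sst+ (of 7195), Adarb2+ (of 12571), Ebf1+ (of 10005), triple-negative (of 13342) and excitatory nuclei (of 19648), edgeR's quasi-likelihood test with group alone. At an unadjusted p under 0.05 there were 897, 236, 590, 248, 644 and 1277 genes, and DESeq2 called 37, 0, 13, 5, 4 and 98, none of them a member. With 2 libraries a group, an exact permutation test cannot go below p = 0.333.

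In Sst+ nuclei, which had *Sst* detected and so hold only a portion of the Cre lineage, *Sox6* was at 3514 and 2918 CPM in the Dnmt1 KO libraries and at 2399 and 2016 CPM in the controls. The groups did not overlap, with a log2 difference of 0.60 ± 0.23 that did not pass the adjustment (adjusted p = 0.999, edgeR), although its unadjusted p was under 0.05. In this gate 3 of 7 tested members did not overlap between the genotypes (*Sox6*, *Maf* and *Zeb2*), against 33.9% of all 7195 genes tested, a share near the background. Of the lists, the CGE, radial glia, microglia, endothelial and oligodendrocyte precursor sums overlapped between the genotypes in this gate, and the 3 that follow did not. The excitatory markers were at 224 and 1216 CPM in the Dnmt1 KO and at 1507 and 1641 CPM in the control libraries, the striatal and LGE list at 761 and 1099 against 2160 and 1211 CPM, and the GABAergic and MGE list at 27714 and 26917 against 22116 and 23336 CPM. Gene by gene, the GABAergic and MGE list had a median log2 difference of 0.05, with 0 of its 16 tested genes called. The part of these lists in the *Sox6* difference was not tested. *Maf* was at 165 and 235 CPM in the Dnmt1 KO and at 239 and 353 CPM in the control libraries, also without overlap (−0.47 ± 0.28, adjusted p = 0.999). *Lhx6*, at 436 and 237 against 262 and 394 CPM, overlapped (0.07 ± 0.36, adjusted p = 0.999). *Satb1* (0.59 ± 0.37), *Mef2c* (0.13 ± 0.26), *Zeb2* (−0.03 ± 0.20) and *Npas1* (−0.11 ± 1.00) did not pass. *Zeb2* did not overlap, at 1556 and 1669 against 1759 and 1685 CPM, with a difference near 0. The *Satb1* value rested on Dnmt1 KO replicate 1, whose 1121 CPM in 16 nuclei was the highest while the other Dnmt1 KO library, at 520 CPM, lay below both controls.

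In Gad+ nuclei no member passed either, and the Dnmt1 KO and Control ranges overlapped for all 9, where 37.5% of all genes tested did not overlap. Means were 212 ± 67.8 and 225 ± 115 CPM for *Lhx6* (SD, n = 2 libraries each; −0.07 ± 0.42 on the log2 scale), 1836 ± 351 and 1568 ± 112 CPM for *Sox6* (0.24 ± 0.18), and 1148 ± 3.87 and 973 ± 337 CPM for *Mef2c* (0.25 ± 0.26). The remaining tested differences were 0.27 ± 0.32 for *Satb1*, 0.12 ± 0.19 for *Zeb2*, −0.07 ± 0.34 for *Maf*, −0.04 ± 0.69 for *Npas1* and 1.83 ± 1.59 for *Nkx2-1*, with adjusted p from 0.849 to 0.999. The striatal and LGE list had a median of −1.50 in the same test, with 0 of its 15 genes called. The part that the high striatal sum of Control replicate 1, given above, had in this median was not tested. Without the Ebf1+ nuclei, an alternative added after seeing the data, the same test called 0 members as well.

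*Satb1* in Adarb2+ nuclei was at 350 and 225 CPM in the Dnmt1 KO and at 152 and 213 CPM in the control libraries, without overlap (0.66 ± 0.26, adjusted p = 0.977, edgeR), again with an unadjusted p under 0.05. It was 1 of 7 tested members without overlap in this gate, against 34.9% of all genes tested. In Ebf1+, triple-negative and excitatory nuclei 0 tested members stood without overlap, where 30.0%, 36.7% and 39.4% of all genes tested did. The excitatory markers in Adarb2+ nuclei, at 1631 and 1822 against 2275 and 2406 CPM, did not overlap either. The other lists there overlapped. Among these, the striatal and LGE list was at 1890 and 2812 against 6401 and 2422 CPM. The striatal and LGE list was highest in Control replicate 1, the library with the lowest *Satb1* value. The part of these lists in the *Satb1* difference was not tested. The test of whether the genotype difference itself differed between gates called no member and 0% of 18810 genes for Gad+ against excitatory nuclei, and 0% of 12370 genes for Sst+ against the other Gad+ nuclei. At an unadjusted p under 0.05 these held 401 and 394 genes, and DESeq2 called 4 and 0. In the former *Nkx2-1* had the largest member value, 5.19 ± 1.49, with an unadjusted p under 0.05 (adjusted p = 1, edgeR), and 54 of its 113 transcripts in Gad+ nuclei came from Dnmt1 KO replicate 1. In excitatory nuclei *Nkx2-1* had 4 transcripts, in Control replicate 1, and was at 0 in the other 3 libraries, so the fitted size depends on the prior count. It had failed the filter on low counts where the groups were the gates alone. Here the filter took groups of gate and genotype, and it passed through its Gad+ values only. Its value and unadjusted p are therefore no support for a difference. *Mef2c* had 0.71 ± 0.30 (adjusted p = 1, edgeR), and was at 510 CPM in excitatory nuclei of Dnmt1 KO replicate 1 and at 809 to 1048 CPM in those of the other 3 libraries.

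**Figure D3:**
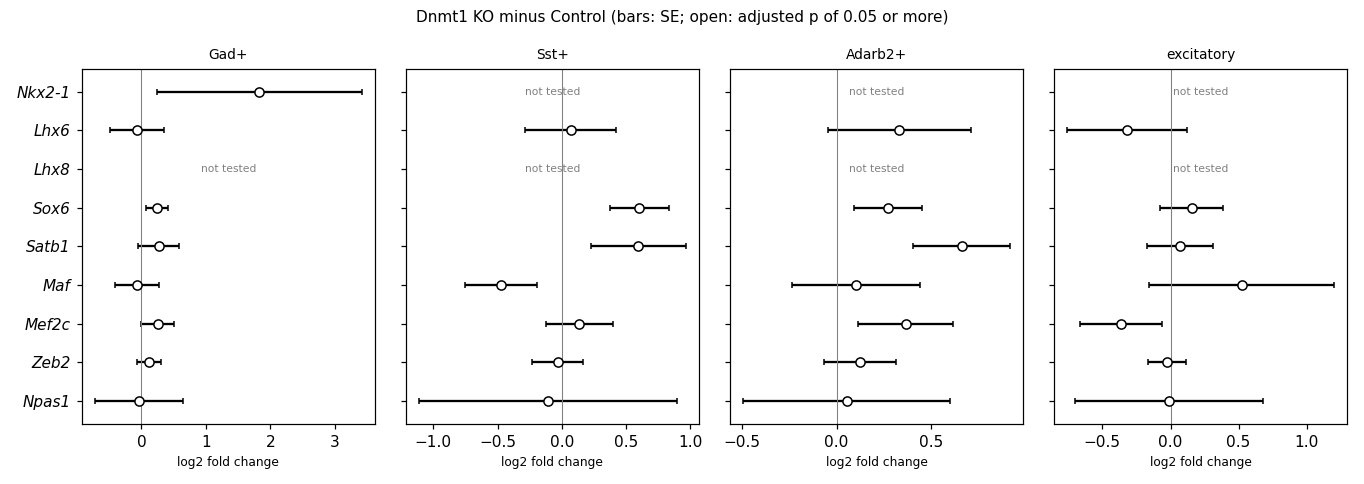
Log2 fold change of Dnmt1 KO over Control (x axis, each panel on its own scale) for each factor in 4 gates, with bars for the SE. All points are open, as no adjusted p was under 0.05, and *Sox6* in Sst+ (0.60) and *Satb1* in Adarb2+ nuclei (0.66) lie farthest from 0 relative to their SE.

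The few *Nkx2-1* nuclei differed between the libraries that held them, and the following description was made after their values were seen. In Dnmt1 KO replicate 1, 21 Gad+ nuclei held *Nkx2-1*, and 20 of them were triple-negative. *Lhx6* was detected in 1 of the 21 (4.76%) against 72.8% of the Gad+ nuclei without *Nkx2-1* in that library, *Mef2c* in 8 (38.1% against 86.4%) and *Npas1* in 1 (4.76% against 45.6%). *Sox6*, in 18 nuclei (85.7% against 88.3%), and *Zeb2*, in 18 (85.7% against 96.1%), were close to the other nuclei by share but not by level, at 859 against 2149 CPM and at 692 against 2721 CPM. Their depth was similar, with medians of 10658 and 11468 transcripts.

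The genes highest in these 21 nuclei relative to the other Gad+ nuclei were led by *Sfta3-ps* (2496 against 9.07 CPM). *Slit2*, a secreted guidance cue, was at 6388 against 240 CPM, *Slc1a3*, a glial glutamate transporter, at 3399 against 129 CPM, and *Ntn1*, the guidance cue netrin, at 890.4 against 27.6 CPM. Their GABAergic and MGE list summed to 7723 CPM against 30027 CPM, while the radial glia (1415 against 550 CPM), excitatory (2437 against 1373 CPM) and striatal and LGE lists (2449 against 1648 CPM) were higher. The microglia, endothelial and oligodendrocyte precursor lists held only 13, 5 and 3 transcripts in these nuclei (51.7 against 15.2, 19.9 against 5.06 and 11.9 against 2.11 CPM). The CGE list was lower, at 3637 against 5321 CPM.

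In Control replicate 1, 23 Gad+ nuclei held *Nkx2-1*, of which 6 were Adarb2+, 6 Ebf1+ and 11 triple-negative. Here *Lhx6* was detected in 18 (78.3% against 41.3% without *Nkx2-1*) and *Sox6* in 20 (87.0% against 66.5%). *Mef2c* (244 against 746 CPM), *Satb1* (76.2 against 238 CPM) and *Npas1* (10.9 against 33.1 CPM) were lower by level in these nuclei, as they were in Dnmt1 KO replicate 1 (103 against 1206, 71.5 against 472 and 3.97 against 99.1 CPM). Their GABAergic and MGE list, at 22594 against 21733 CPM, was at the level of the other nuclei. The excitatory (863 against 1837 CPM), striatal and LGE (2509 against 6968 CPM), CGE (2194 against 2948 CPM) and radial glia lists (627 against 709 CPM) were lower, unlike the excitatory, striatal and radial glia lists in Dnmt1 KO replicate 1. The oligodendrocyte precursor list was higher, at 43.6 against 5.07 CPM on 20 transcripts, and the microglia and endothelial lists held 9 and 4 transcripts. Of the 23 nuclei, 6 also passed the sum of excitatory transcripts. *Sfta3-ps* led here too (797 against 7.63 CPM), followed by *Cpne4* and *Asic2*, and *Etv1*, an ETS factor of the MGE list, was at 499 against 46.1 CPM. Of 6 *Nkx2-1* nuclei in Dnmt1 KO replicate 2, 5 held *Lhx6* and 3 were Sst+, and both of those in Control replicate 2 held *Lhx6*.

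*Lhx8* was found in 11 Gad+ nuclei of Control replicate 1, with 69 of its 70 transcripts in Gad+ nuclei over all libraries. Of these nuclei 6 also held *Nkx2-1* (54.5% against 1.15% of those without *Lhx8*) and 7 held *Lhx6* (63.6% against 41.8%). Their median depth was 31504 transcripts against 10020, and 5 of the 11 also held at least 2 excitatory transcripts, so shares of nuclei with a gene are not at matched depth. By level, *Lhx6* was at 125 against 144 CPM and *Nkx2-1* at 50.9 against 1.48 CPM. *Satb1* (48.1 against 237 CPM), *Mef2c* (113 against 746 CPM) and *Zeb2* (538 against 2042 CPM) were lower in the *Lhx8* nuclei. So were the GABAergic and MGE (9283 against 21977 CPM), CGE (742 against 2970 CPM), striatal and LGE (3453 against 6927 CPM) and excitatory lists (1449 against 1822 CPM). The radial glia list was at 753 against 706 CPM. The genes highest in these nuclei relative to the other Gad+ nuclei were led by *Cpne4* (1888 against 28.1 CPM), *Cntnap5a* and *Asic2*, and *Sfta3-ps* was detected in 10 of the 11. *Slc5a7* (153 against 0.153 CPM) and *Chat* (87.7 against 0.204 CPM) stood at positions 13 and 32 and were each detected in only 4 of the 11 nuclei.

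**Figure D4:**
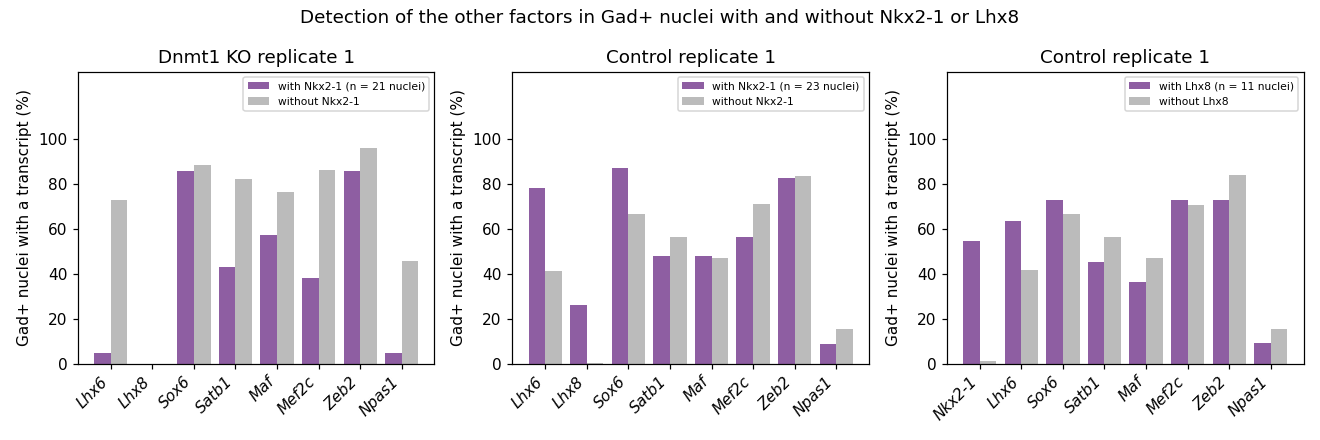
Share of Gad+ nuclei with at least 1 transcript of each other factor (y axis, percent, unthinned) in nuclei with (purple) and without (grey) *Nkx2-1* or *Lhx8*, in the libraries with at least 10 such nuclei. *Lhx6* is in 4.76% of the *Nkx2-1* nuclei of Dnmt1 KO replicate 1 and in 78.3% of those of Control replicate 1. Whether the *Nkx2-1* nuclei of these libraries are of the same cell type was not tested.

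Genes most like each member were taken by Pearson correlation of log2(CPM + 1) over 24 sums (6 gates in 4 libraries) among 8321 genes with a mean of at least 10 CPM. The sums share libraries, so the values are descriptive. *Lhx6* was most like *Nxph2* (r = 0.99), *Dgkg* (0.99) and *Nxph1* (0.98), and *Npas1* like *Zbtb16* (0.98). *Satb1* was most like *Mkx* (0.95), *Sox6* like *Qki*, an RNA-binding protein (0.94), *Zeb2* like *Cacnb4*, a calcium channel subunit (0.94), and *Mef2c* like *Mast1* (0.97). Among the members themselves *Lhx6* and *Maf* (0.97), *Lhx6* and *Npas1* (0.95) and *Maf* and *Npas1* (0.93) ran closest, while *Sox6* and *Mef2c* had r = −0.43. For *Nkx2-1* the closest was *Sfta3-ps* (0.80) and for *Lhx8* *Nlk* (0.68), both resting on few transcripts.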

How the data were processed

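Nuclei from frozen tissue were barcoded by split-pool indexing (Parse Evercode WT), and reads were run by the authors through Trailmaker, with mm39 as the build. The deposited values are unfiltered, unnormalized counts of transcripts per barcode and gene. The Trailmaker version and the counting of introns and strand are not given in the sources used here, so genes that overlap on either strand (*Sox6*, *Satb1*, *Zeb2*, *Maf* and others have such neighbours) may share reads. The submitters' notes name R 4.4.1 and Seurat 5.0.1.9001 for later steps.

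Barcodes with 1500 to 60000 transcripts were kept, a range the study states for reads. Barcodes above the upper limit held 1.35% and 4.37% of the transcripts of the Dnmt1 KO libraries and 19.2% and 29.4% of those of the controls, so the loss ran with genotype, and its part in the results was not tested. The limit of 10% mitochondrial transcripts removed 0 nuclei. No doublet caller was run, and leaving out Gad+ nuclei with excitatory transcripts was an alternative. Free RNA was not removed. Nuclei are not replicates, so counts were summed per gate and library and tested with edgeR 4.0.16 (R 4.3.3; TMM, filterByExpr, quasi-likelihood, Benjamini-Hochberg over all genes, threshold 0.05); the SE of a fold change is its size divided by the root of the F statistic. Gate comparisons had library as a block, and genotype fits had group alone. The 9 gate-defining genes stayed in library sizes and out of the tests. DESeq2 1.42.0 was an alternative. The scripts were tested on simulated data. CPM intervals are exact Poisson at 95%. Named genes were all members, up to 4 called genes with the largest change per list and comparison, and the 3 genes most alike each member, of which the text gives a selection. Some named items are not reported here. Genes of the *Nkx2-1* and *Lhx8* nuclei needed detection in at least 30% of them and were ranked by fold after adding 20 CPM. The members, gates and lists were chosen with earlier results of these data known. Positions are GENCODE vM39 on GRCm39, and 56323 of 56884 genes matched it by identifier.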

Additional observations from a re-analysis of the deposited data

How the results depend on the processing

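In Gad+ against excitatory nuclei the number of members called was 6 under all alternatives except 8 without a filter on low counts, and 5 to 6 with a library left out. In Sst+ against Adarb2+ it was 3 to 5, the highest, 5, without that filter, and in Sst+ against Ebf1+ 4 to 5. In Adarb2+ against Ebf1+ nuclei 1 member became 2 when nuclei that are also excitatory were left out, 2 with the filter on mapped reads, 2 with at least 2 transcripts of *Adarb2* or *Ebf1*, 6 without the filter on low counts, and 1 to 2 with a library left out. Between these GABAergic gates the calls over all genes also rose without that filter, as given below. The share of all genes called is not set beside each alternative, so these counts are not a result about the members. Without that filter the genotype comparison called 2 members in Gad+ (*Nkx2-1* and *Lhx8*), 2 in Adarb2+ (*Lhx8* and *Satb1*), 1 in triple-negative nuclei (*Nkx2-1*) and 1 in the test of Gad+ against excitatory nuclei (*Mef2c*), and 603, 250, 343 and 291 genes in all, against 0 with it. The cause was not tested. No other alternative called a member by genotype, and no called member changed direction under any alternative run.

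Counts over all genes moved more. Without the filter on low counts, 1401, 1757 and 1286 genes were called in Sst+ against Adarb2+, Sst+ against Ebf1+ and Adarb2+ against Ebf1+ nuclei, in place of 586, 844 and 373. Sst+ against Adarb2+ gave 332 without Control replicate 1, and without Dnmt1 KO replicate 2, which held 133 of the 216 Sst+ nuclei, the 3 counts were 133, 231 and 34. In Gad+ against excitatory nuclei 2761 were called without Dnmt1 KO replicate 2 and 2822 without Control replicate 2, in place of 4558, and in Adarb2+ against Ebf1+ nuclei 184 without Control replicate 2. For genotype in Sst+ nuclei 0 became 6 to 65 with a library left out, 48 without the filter and 3 with batch as a covariate. In excitatory nuclei it became 715 without the filter and 122 without Dnmt1 KO replicate 2, in triple-negative nuclei 23 without that library, and in Ebf1+ nuclei 139 without the filter. The test of the genotype difference in Sst+ against the other Gad+ nuclei called 31 genes without nuclei that are also excitatory, 10 with the filter on mapped reads, 46 without the filter on low counts and 30 to 166 with a library left out.

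Differences not called changed sign as follows. *Mef2c* in Sst+ against Adarb2+ was 0.13 without nuclei that are also excitatory, 0.18 with the filter on mapped reads and 0.12 with at least 2 marker transcripts, and −0.0094 in Adarb2+ against Ebf1+ without nuclei that are also excitatory. *Zeb2* in Sst+ against Ebf1+ was −0.024 with *Gad1*+*Gad2* at least 4. By genotype in Gad+ nuclei batch as a covariate gave 0.60 for *Lhx6*, 0.53 for *Maf* and 0.97 for *Npas1*, and *Gad1*+*Gad2* at least 4 gave 0.035 for *Npas1*. Batch 2 is Control replicate 2 alone, so here and in the counts above the batch covariate fits that library exactly. It leaves a lone control library, which amounts to leaving out Control replicate 2, and is no separate check for batch. In Sst+ nuclei *Lhx6* was −0.41 without nuclei that are also excitatory and −0.49 with the filter on mapped reads, *Mef2c* −0.21 with the latter, and *Npas1* 0.57 with the latter, 0.28 by DESeq2 and 0.72 with batch.

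With a library left out the ranges that crossed 0 were, in Sst+ against Adarb2+, −0.33 to 0.10 for *Mef2c* and −0.66 to 0.079 for *Npas1*, −0.26 to 0.28 for *Zeb2* in Sst+ against Ebf1+, and −0.075 to 0.51 for *Lhx6* in Adarb2+ against Ebf1+ nuclei. By genotype in Gad+ they were −1.62 to 4.65 for *Nkx2-1*, −0.53 to 0.60 for *Lhx6*, −0.085 to 0.74 for *Satb1*, −0.50 to 0.53 for *Maf*, −0.079 to 0.68 for *Mef2c*, −0.089 to 0.37 for *Zeb2* and −0.95 to 0.98 for *Npas1*. In Sst+ they were −0.41 to 0.49 for *Lhx6*, −0.053 to 1.07 for *Satb1*, −0.19 to 0.39 for *Mef2c*, −0.082 to 0.033 for *Zeb2* and −2.05 to 1.22 for *Npas1*, and −2.61 to 5.43 for *Nkx2-1* in triple-negative nuclei. The lone library of a group was then assumed to vary like the others.

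The replicate block, which pairs libraries by their number, called 0 members in each genotype comparison, gave 0.0084 for *Maf* in Gad+ nuclei, and called 5 genes in Adarb2+ nuclei in place of 0. The labels do not say that a number marks a shared litter or day. Same-numbered libraries deviated together with r from 0.01 to 0.20 over the 6 gates. Few transcripts limit the values of *Nkx2-1* and *Lhx8*, and few nuclei limit those of the Sst+ and Ebf1+ gates, where single libraries held 15 or 16 nuclei.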
